A study of Mus musculus with 12 samples.

Results

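Collagen genes were followed in the hippocampal mRNA of mice of the strains C57BL/6J (B6) and DBA/2J (D2). A gene was taken as a collagen gene where its symbol consisted of Col, a number, the letter a and a number, and where its mean expected count over the 12 libraries was at least 10. Of the 22236 genes in the table, 44 carried such a name and 43 met both conditions. Col10a1 lay just under the threshold with a mean of 8.0, and Col17a1 (24.2) and Col28a1 (25.3) were the members just above it. All 43 members had counts above 0 in every library and passed the filter on low counts, so none was left out of the 15853 genes tested.

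Male mice aged 3 to 5 months received virus in the hippocampus of both hemispheres, and the hippocampus was dissected whole at least 6 weeks later. In each strain, 3 mice received AAV9-shRNA-Hp1bp3, a virus encoding a short hairpin RNA against Hp1bp3 (KD), and 3 received a virus with a scrambled hairpin, AAV-scrmb-shRNA (Ctrl), so that control mice carried virus as well. Hp1bp3 encodes heterochromatin protein 1 binding protein 3, a chromatin protein. The RNA came from the whole dissected tissue, in which cells reached by the virus and cells it did not reach are mixed.

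The targeted transcript was read first, as the normalized count that the authors derived with DESeq2. Hp1bp3 had 9372, 8826 and 9348 normalized counts in the B6 Ctrl mice, 5539, 5429 and 7633 in the B6 KD mice, 6871, 6504 and 7002 in the D2 Ctrl mice, and 5337, 4878 and 6941 in the D2 KD mice. In B6 every KD library had less Hp1bp3 than any Ctrl library, whereas the library labelled D2 KD 3 lay inside the D2 Ctrl range and so went against its label. Library totals, given in rounded form, ran from 18213100 to 39420200 expected counts. Markers of hippocampal neurons were present in every library, with sums of 228911 to 333062 normalized counts, and were lower in B6 KD than in B6 Ctrl (values below). The summed markers of the choroid plexus separated the libraries. They lay between 2305 and 6269 in 5 libraries (B6 Ctrl 1, B6 Ctrl 3, B6 KD 1, D2 Ctrl 1 and D2 KD 2) and between 85868 and 163646 in the other 7, with none of the 12 markers at 0 in all libraries. Results on collagen genes that move with this split are given with those values below.

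Collagens are extracellular proteins whose chains wind around each other into a long helix, and the chain composition sets where they are used. Fibrillar collagens (types I, II, III, V, XI, XXIV and XXVII) build the tensile fibers of connective tissue, and FACIT collagens decorate the surface of such fibers. Type IV collagen forms the sheet of the basement membrane, including that around brain vessels, type VI forms beaded filaments, type VIII forms short-chain networks, the multiplexins (types XV and XVIII) lie in basement membrane zones, and types XIII, XVII, XXIII and XXV are anchored in the cell membrane. In the brain, most collagen belongs to the vasculature, the meninges and the stroma of the choroid plexus rather than to neurons.

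The type IV genes are arranged head to head on the chromosomes, and their start regions are shown because this class held the members with the highest levels and the one member called between KD and Ctrl. In the GENCODE mouse release M21 annotation (GRCm38), Col4a1 lies at chr8:11198423-11312826 on the minus strand and Col4a2 at chr8:11312805-11449287 on the plus strand, with 21 bases from start to start. Col4a6 (chrX:141165403-141474076, minus) and Col4a5 (chrX:141475385-141689234, plus) start 1309 bases apart, and Col4a4 and Col4a3 on chromosome 1 start 72 bases apart. The following windows, from RefSeq (GRCm38.p6), run 5′ to 3′ along each gene's own strand from 250 bases before to 50 bases after the start, at chr8:11312777-11313076 for Col4a1, chr8:11312555-11312854 for Col4a2, chrX:141475169-141475468 for Col4a5 and chrX:141474027-141474326 for Col4a6. The window of Col4a5 is placed on a start further along the gene than the GENCODE start given above. Capitals mark matches, on either strand, to the CCAAT box, to the GC box GGGCGG and to the TATA motif TATAAA.
Col4a1: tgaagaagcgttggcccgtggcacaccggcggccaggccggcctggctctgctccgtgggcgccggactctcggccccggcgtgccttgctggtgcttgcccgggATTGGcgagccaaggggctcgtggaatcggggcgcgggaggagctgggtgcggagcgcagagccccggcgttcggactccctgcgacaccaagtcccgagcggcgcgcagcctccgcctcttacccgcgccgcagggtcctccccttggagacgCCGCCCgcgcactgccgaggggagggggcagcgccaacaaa
Col4a2: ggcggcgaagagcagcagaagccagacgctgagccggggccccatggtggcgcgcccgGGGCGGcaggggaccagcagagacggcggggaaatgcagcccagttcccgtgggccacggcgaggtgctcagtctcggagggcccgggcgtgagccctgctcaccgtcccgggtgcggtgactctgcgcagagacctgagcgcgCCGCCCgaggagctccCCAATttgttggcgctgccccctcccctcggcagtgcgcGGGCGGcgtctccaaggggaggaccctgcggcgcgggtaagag
Col4a5: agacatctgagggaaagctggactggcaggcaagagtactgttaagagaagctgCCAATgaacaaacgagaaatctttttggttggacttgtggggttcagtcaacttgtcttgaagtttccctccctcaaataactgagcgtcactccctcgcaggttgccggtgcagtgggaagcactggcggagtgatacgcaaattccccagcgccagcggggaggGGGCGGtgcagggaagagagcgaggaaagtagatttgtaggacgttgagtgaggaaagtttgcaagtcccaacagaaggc
Col4a6: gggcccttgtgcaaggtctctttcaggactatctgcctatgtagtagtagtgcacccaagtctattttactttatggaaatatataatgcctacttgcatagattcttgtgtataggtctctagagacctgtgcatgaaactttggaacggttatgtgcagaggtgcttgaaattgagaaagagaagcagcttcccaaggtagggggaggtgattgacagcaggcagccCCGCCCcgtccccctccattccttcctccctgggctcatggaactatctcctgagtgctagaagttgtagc
The windows of Col4a1 and Col4a2 share 78 bases, read from opposite strands, and both are rich in G and C (74% and 73.7%, against 52.7% for Col4a5 and 48.3% for Col4a6). Each of the 4 windows held at least 1 GC box and none held TATAAA. Windows were found for 34 of the 43 members, 37 windows in all. The GC box was present in 62.2% of these, against 35.7% of all 32851 windows, CCAAT in 35.1% against 37.4%, and TATAAA in 10.8% against 13.6%. Each motif was searched on both strands, no searched motif contains another, and a match is a description of letters only.

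Collagen expected counts made up a small part of every library. They amounted to 0.0752% ± 0.0194 of expected counts in the B6 Ctrl mice, 0.123% ± 0.0257 in the B6 KD mice, 0.101% ± 0.0164 in the D2 Ctrl mice and 0.113% ± 0.0137 in the D2 KD mice (SD, n = 3 each). The 3 B6 Ctrl libraries had 0.0656%, 0.0976% and 0.0625% and the 3 B6 KD libraries had 0.0996%, 0.118% and 0.150%. KD thus lay above Ctrl in B6, but by a narrow margin, between B6 Ctrl 2 with 0.0976% and B6 KD 1 with 0.0996%. Choroid plexus markers were high in B6 Ctrl 2 alone among the B6 Ctrl libraries. They were low in B6 KD 1 alone among the B6 KD libraries. The part of this split in the collagen totals was not tested. In D2 the Ctrl libraries (0.0874%, 0.0958% and 0.119%) and the KD libraries (0.129%, 0.109% and 0.102%) overlapped. Levels of different genes were compared as normalized counts per kilobase of annotated exon, joined over all annotated transcripts of a gene. Rankings and ratios between genes on that scale depend on which transcripts are annotated. On that scale the 6 type IV genes held 30.2% of the collagen sum, the 11 fibrillar genes 21.6%, the 9 FACIT genes 19.2% and the 6 type VI genes 13.6%, and the other 11 genes the rest. Col4a2, Col4a1 and Col6a1 led with 706, 491 and 475 normalized counts per kilobase on average. They were followed by Col9a3 with 401, Col11a2 with 222, Col16a1 with 175 and Col25a1 with 169.

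**Figure D1:**
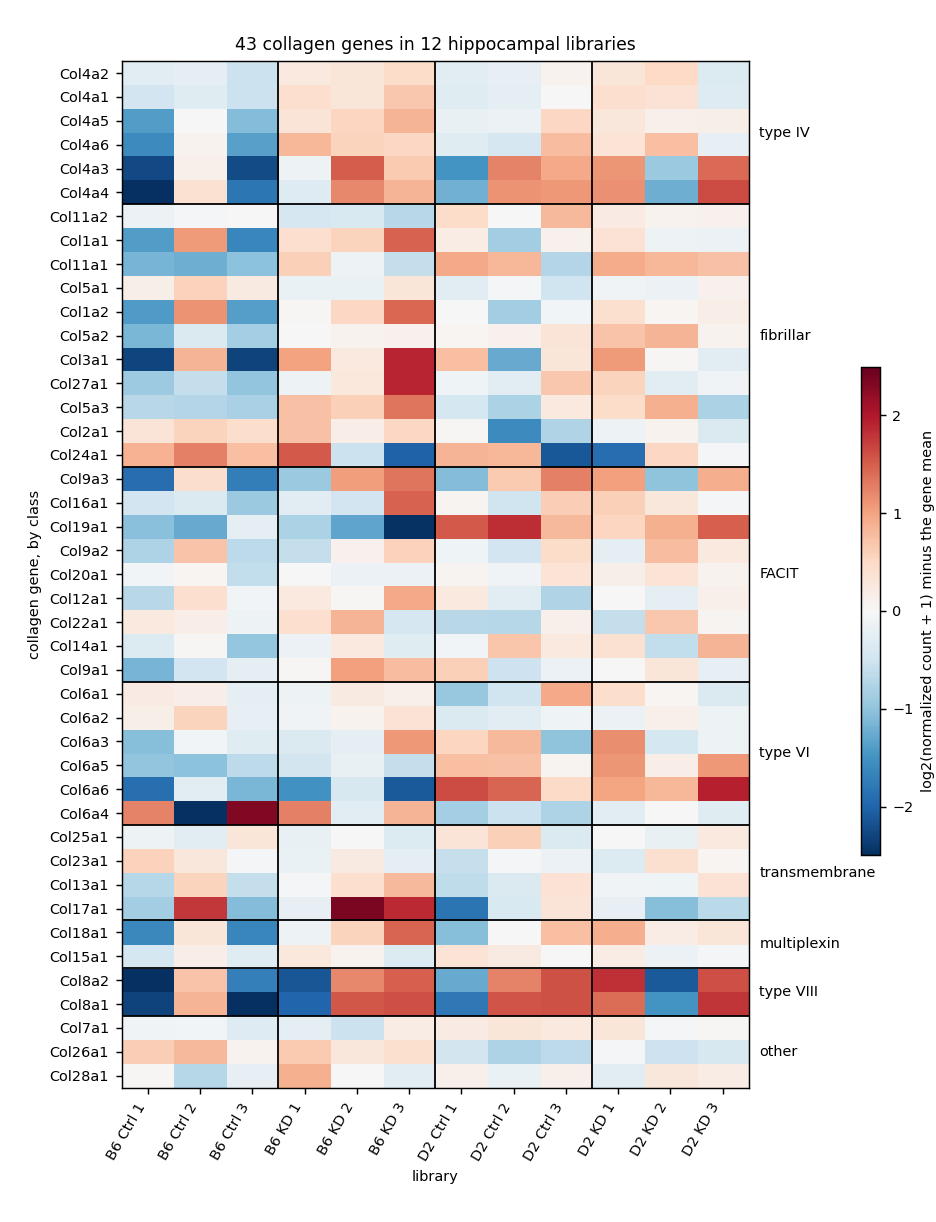
Heat map of the 43 collagen genes (rows, grouped by class and ordered by level per kilobase within a class) in the 12 libraries (columns, groups separated by black lines). Color is log2(normalized count + 1) minus the gene's mean over all libraries, with the ends of the scale saturated. Type VIII genes, Col4a3, Col4a4 and Col9a3 are pale or red in 7 libraries and blue or pale in the other 5, where Col4a3 in B6 KD 1 is near its mean. Col19a1 and Col6a6 are blue in B6 and red in D2.

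How much a member varied over the 12 libraries differed widely. The highest library exceeded the lowest by 1.73 times for the steadiest member, by 4.47 times in the median and by 36.7 times for the most variable one, Col6a4. In 10 members the ratio was over 10, and in 5 it was under 2. Col15a1, a multiplexin, was the steadiest, with 172 to 297 normalized counts. Among the leading genes of their classes, Col7a1, the collagen of anchoring fibrils, had 206, 208 and 175 in the B6 Ctrl mice, 186, 152 and 250.3 in the B6 KD mice, 254, 271 and 261 in the D2 Ctrl mice, and 271, 216 and 224 in the D2 KD mice. Col25a1, a transmembrane collagen of neurons, had 1963, 1749.6 and 2644, then 1878, 2139 and 1691, then 2662, 3246 and 1672, and then 2162, 1891 and 2521 in the same order of groups. Neither separated KD from Ctrl in either strain.

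The first comparison was KD against Ctrl in B6, which asks whether lowering Hp1bp3 was accompanied by a change in collagen mRNA. Col4a1 was the one collagen gene that passed the test. It encodes a chain of type IV collagen. Col4a1 had 2533, 2852 and 2432 normalized counts in the B6 Ctrl mice and 4703, 4335 and 5656 in the B6 KD mice. All 3 KD libraries lay above all 3 Ctrl libraries, and the log2 fold change was 0.93 ± 0.19 (SE), with an adjusted p of 0.0379 in edgeR's quasi-likelihood test with Benjamini-Hochberg adjustment. This was 1 of 43 members, or 2.33%, against 2.64% of all genes tested (1.76% higher), so the share of members called was close to the background. The call lay near the threshold. When libraries were omitted singly, 8 of the 12 refits lost it (without B6 Ctrl 1, B6 Ctrl 2, B6 Ctrl 3, B6 KD 1, B6 KD 2, D2 Ctrl 1, D2 Ctrl 2 or D2 KD 1), where the adjusted p reached 0.188 while the log2 fold change of Col4a1 stayed between 0.78 and 1.00.

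Col4a2, whose product assembles with that of Col4a1, had 3759, 3823 and 3123 normalized counts in the B6 Ctrl mice and 5409, 5611 and 6216 in the B6 KD mice. These libraries did not overlap either, but the log2 fold change of 0.71 ± 0.19 missed the threshold in edgeR (adjusted p = 0.0711). All 6 type IV genes had positive values, with a median log2 fold change of 1.37, and 4 of the 6 (Col4a1, Col4a2, Col4a5 and Col4a6) did not overlap between the groups, a pattern with KD above that 12.6% of all genes showed. The largest values, 1.89 ± 0.88 for Col4a3 and 1.57 ± 0.94 for Col4a4, enter that median. These 2 genes overlapped between the groups and followed the choroid plexus markers (below), which were uneven between the B6 groups. The part of those markers in the class median was not tested. Col4a5 had 172, 458 and 214 normalized counts in the B6 Ctrl mice and 570.5, 664 and 817 in the B6 KD mice (log2 fold change 1.31 ± 0.33, edgeR adjusted p = 0.0591). Col4a6 had 64.0, 207 and 75.8 against 348, 288 and 279 (1.43 ± 0.46, edgeR adjusted p = 0.114). Col4a5 and Col4a6, whose chains also assemble with each other, are named here because they belong to this class, after their values were seen.

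**Figure D2:**
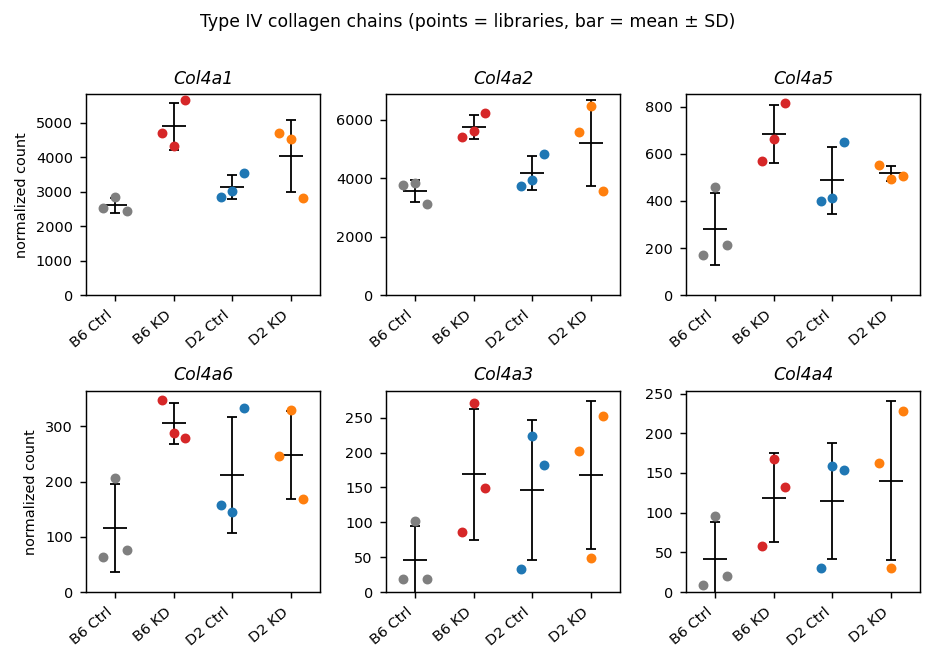
Normalized counts of the 6 type IV collagen genes, 1 panel per gene with a linear axis from 0. Points are libraries in order of replicate number, horizontal bars are group means and error bars are SD (n = 3). For Col4a1 and Col4a2 the B6 KD points lie above the B6 Ctrl points and the third D2 KD point lies with the D2 Ctrl points.

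Over all 43 members the median log2 fold change in B6 was 0.62, against 0.00 over all genes tested. Positive values were found for 33 members, or 76.7%, against 50.4% of all genes. An unadjusted p under 0.05 was found for 12 members, where 20.6% of all genes had one. The KD libraries lay entirely above the Ctrl libraries for 10 members and entirely below for 1 member, where the shares over all genes were again 12.6% for above and, for below, 16.2%. The 10 that lay above were Col4a1, Col4a2, Col4a5, Col4a6, Col5a2, Col5a3, Col9a1, Col11a1, Col27a1 and Col6a5. Of these, the fibrillar Col5a2 had 355, 610.4 and 435 normalized counts in Ctrl and 792, 831 and 845 in KD. Col11a1, a further fibrillar chain, had 570.0, 548 and 628 against 1921, 1171 and 839. The 1 member that lay below was Col11a2, the partner chain of Col11a1, with 1323, 1445 and 1459 in Ctrl and 1098, 1133 and 913 in KD (log2 fold change -0.41 ± 0.17, edgeR adjusted p = 0.207). The values of the type XI chains thus had opposite signs in B6, and neither passed the edgeR threshold.

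The number of members past the threshold in B6 depended on the tool. DESeq2, the tool used by the authors, called 9 members, all higher in KD (background 5.56%; Col4a1, Col4a2, Col4a5, Col4a6, Col5a2, Col5a3, Col9a1, Col11a1 and Col27a1), or 20.9% of 43, where it called 10.1% of the genes with an adjusted p. limma-voom called 2 (Col4a1 and Col4a5), where it called 2.32% of all genes tested. The count in edgeR also moved with single libraries. The calls over all genes moved as well, and both counts are given. With all libraries 418 of 15853 genes were called. No member was called without B6 Ctrl 1, B6 Ctrl 3, B6 KD 1, B6 KD 2 or D2 Ctrl 1, and neither was any other gene, while without D2 Ctrl 2 or D2 KD 1 there were 0 members among 45 of 16069 and 124 of 16044 genes called. The 1 member called without B6 KD 3 stood among 790 of 15990 genes, the 2 without D2 KD 2 among 478 of 16014, the 3 without D2 Ctrl 3 among 593 of 16075 and the 4 without the library labelled D2 KD 3 among 673 of 16064. Without B6 Ctrl 2 there were 6 members, namely Col1a1, Col1a2, Col3a1, Col4a5, Col4a6 and Col5a2, among 237 of 16046 genes.

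Those chains stood out for their spread within B6 Ctrl. Col1a1 and Col1a2 encode the chains of type I collagen, the main fibrillar collagen of connective tissue, and Col3a1 encodes type III collagen of vessel walls and loose tissue. Col1a1 had 271, 1493 and 229 normalized counts in the B6 Ctrl mice, 952, 1055 and 1971 in the B6 KD mice, 814, 387 and 763 in the D2 Ctrl mice, and 920.4, 648 and 642 in the D2 KD mice. Col1a2 had 354, 2074 and 366, then 972, 1373 and 2598, then 963, 522 and 908, and then 1254, 989 and 1065 in the same order of groups. Col3a1 had 86.1, 773 and 85.4, then 854, 505 and 1595, then 719, 178 and 529, and then 891, 434 and 356. For all 3 genes B6 Ctrl 2 lay far above the other B6 Ctrl libraries and within the range of B6 KD. Markers of fibroblasts and meninges summed to 7139, 24900 and 6263 normalized counts in the B6 Ctrl mice. In the B6 KD mice they summed to 6946, 19209 and 24007. B6 Ctrl 2 was also the B6 Ctrl library with high choroid plexus markers. The part of these differences in the values of Col1a1, Col1a2 and Col3a1 was not tested. The log2 fold changes of these 3 genes in B6 were 1.03 ± 0.63, 0.85 ± 0.62 and 1.69 ± 0.85, with edgeR adjusted p of 0.388, 0.469 and 0.291.

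Markers of other cell types were not even between the groups of B6, and their part in the collagen values was not tested. Over all genes, KD lay entirely above Ctrl in 12.6% and entirely below in 16.2%, and edgeR called 2.64%. The 10 interferon response genes were all called higher in KD by edgeR, with sums of 2156 to 2591 normalized counts in Ctrl and 12781 to 39030 in KD, and 10 of the 11 microglial markers lay entirely above Ctrl (sums of 14688 to 17060 against 21027 to 35223), 1 of them called. Endothelial markers summed to 12584 to 15819 in Ctrl and 15695 to 17257 in KD, with 5 of 12 entirely above and 0 called. Mural cell markers summed to 8739 to 14112 and 11681 to 13545. Markers of fibroblasts and meninges summed to 6263 to 24900 and 6946 to 24007, with 0 of 15 markers lying apart. Hippocampal neuron markers were lower in KD, with sums of 285462 to 316024 in Ctrl and 228911 to 274728 in KD, 3 of 10 entirely below and 0 called. Astrocyte markers summed to 163991 to 188745 and 184581 to 240397, with 4 of 9 entirely above, 1 entirely below and 1 called higher. Sums overlapped for oligodendrocytes (122545 to 179204 and 124431 to 153952) and their precursors (6758 to 7272 and 5868 to 8273). None of these lists had a marker at 0 in all libraries. In bulk tissue, fewer cells of a type and less RNA per cell cannot be told apart. Choroid plexus markers were low in 2 of the 3 B6 Ctrl libraries and in 1 of the 3 B6 KD libraries. With the choroid plexus score as a covariate the median of the 43 members in B6 was 0.40 and 30 were positive, the value of Col4a1 was 0.92 (edgeR adjusted p = 0.0629) and no member was called. No gene of the 15853 was called in that fit. With the fibroblast score as a covariate Col4a1 was not called (0.90, edgeR adjusted p = 0.0608), the 1 member called was Col4a5 (1.19, edgeR adjusted p = 0.0497), and 50 genes were called in all.

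In D2, no collagen gene passed the test, and neither did any other gene. The median over the members was 0.20, against 0.00 over all genes, and 33 were positive (76.7%, against 51.2% of all genes). With the fibroblast score as a covariate that median was 0.05 and 22 were positive, and it was 0.12 without D2 Ctrl 1 and 0.36 without D2 Ctrl 3. The background of calls was 0% in edgeR, where 2.85% of all genes and no member had an unadjusted p under 0.05. DESeq2 called 0 members and 0.00525% of the genes with an adjusted p, and limma-voom called no gene. Col4a1 had 2847, 3032 and 3530.2 normalized counts in the D2 Ctrl mice and 4709.7, 4541 and 2825 in the D2 KD mice. Col4a2 had 3726, 3955 and 4843 against 5589, 6458 and 3572. For both genes D2 KD 1 and D2 KD 2 lay above all D2 Ctrl libraries, and the library labelled D2 KD 3 lay below them. For Col4a1 it lay below by a narrow margin, 2825 against 2847 in D2 Ctrl 1. In B6 the order was the other way. B6 KD 3, the B6 KD library with the most Hp1bp3, had the highest Col4a1 (5656) and Col4a2 (6216) of that group. The log2 fold changes were 0.36 ± 0.18 for Col4a1 and 0.32 ± 0.19 for Col4a2 (edgeR adjusted p = 1 for both). Without the library labelled D2 KD 3 the value of Col4a1 was 0.56 (edgeR adjusted p = 0.406), and still no member was called. The KD libraries of D2 lay entirely above Ctrl for 2 members, where this held for 2.99% of all genes, and entirely below for 0 members, where it held for 3.06%.

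Averaged over both strains, 0 members and 0 genes in all were called by edgeR or by limma-voom. At an unadjusted p under 0.05 there were 11 members, or 25.6%, against 19.2% of all genes. Col4a1 came closest, at 0.65 ± 0.13 on the log2 scale (edgeR adjusted p = 0.0577), followed by Col5a3 with 1.16 ± 0.28 (0.0706), Col5a2 with 0.63 ± 0.15 (0.0736) and Col4a2 with 0.52 ± 0.14 (0.0877). Omitting the library labelled D2 KD 3 brought calls for these 4 genes, among 799 of 16064 genes called in that fit, and Col4a1 had 0.75 (edgeR adjusted p = 0.00848). Leaving out D2 Ctrl 3 gave 2 calls, Col4a1 and Col5a3, among 326 of 16075 genes. DESeq2 called 6 members, against 7.38% of the genes with an adjusted p. Of these, 5 were higher in KD (Col4a1, Col4a2, Col4a5, Col5a2 and Col5a3, background 3.94%) and 1 was lower (Col11a2, background 3.44%).

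Whether the KD effect differed between strains was tested as the strain by treatment interaction. No member and no gene was called by edgeR, and 3 members, Col27a1, Col4a5 and Col9a1, had an unadjusted p under 0.05, where this held for 5.91% of all genes. Col27a1 had 342, 424 and 322 normalized counts in the B6 Ctrl mice and 587, 775 and 2396 in the B6 KD mice. In D2 it had 593, 528 and 1032 in Ctrl and 946, 525 and 603 in KD. Its highest value was thus that of B6 KD 3. Col9a1 had few counts, 13.9 to 66.8 over all libraries. DESeq2 called 0 members and 0.0697% of the genes with an adjusted p. The interaction of Col4a1, as the log2 fold change in D2 minus that in B6, was -0.57 ± 0.26 (edgeR adjusted p = 0.837), and -0.37 without the library labelled D2 KD 3. The smaller values in D2 are therefore not a tested difference from B6.

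**Figure D3:**
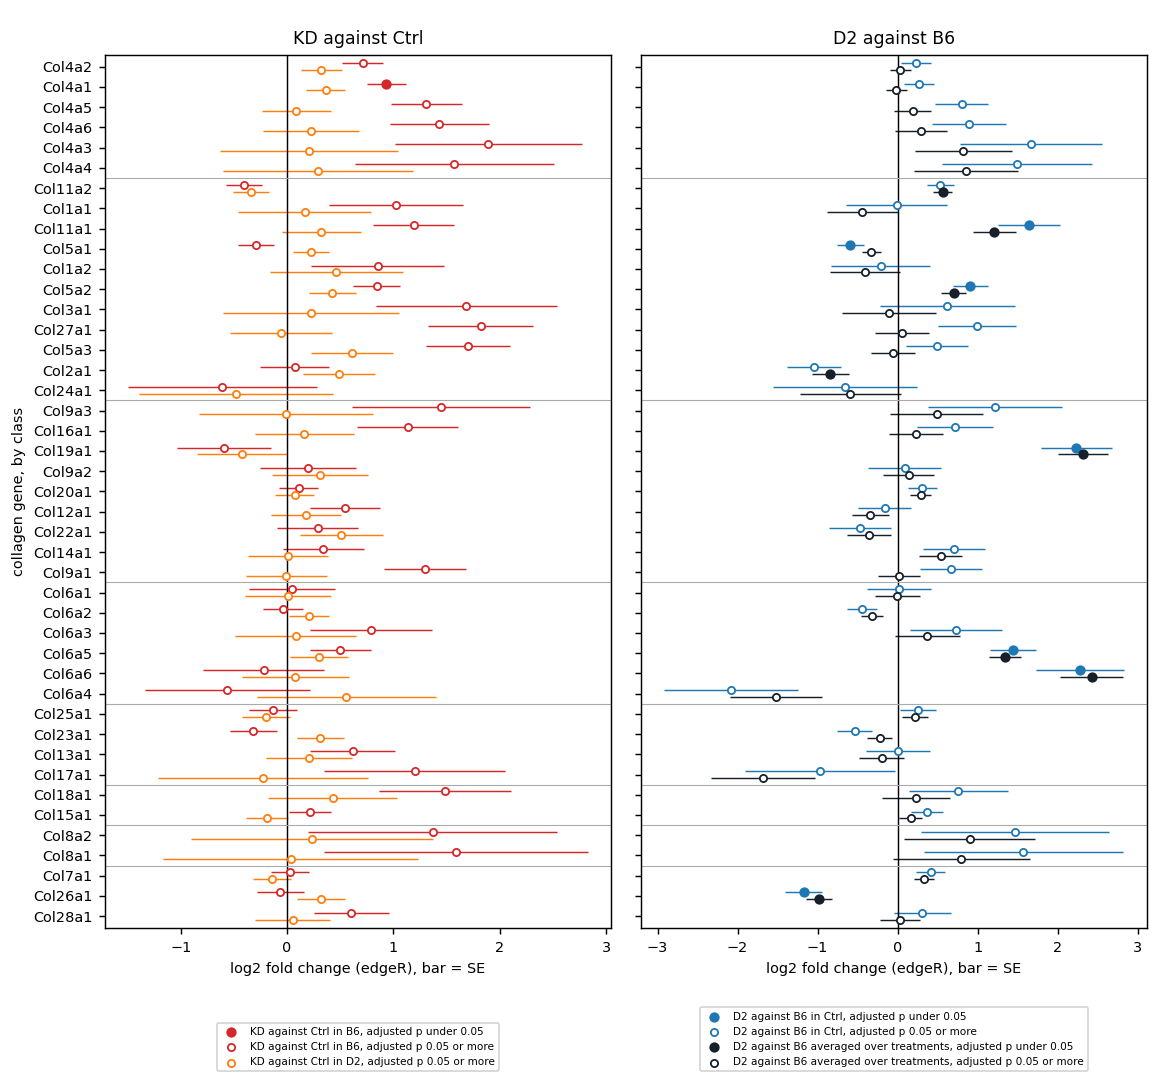
log2 fold changes from edgeR for the 43 collagen genes, grouped by class with gray lines. Left, KD against Ctrl in B6 (red) and D2 (orange). Right, D2 against B6 in Ctrl (blue) and averaged over treatments (black). Bars are SE, and filled points have an adjusted p under 0.05. Only Col4a1 is filled on the left, and on the right Col19a1, Col6a5, Col6a6, Col11a1, Col5a2 and Col26a1 are filled in both comparisons.

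The next comparison was between the strains. In Ctrl mice, 7 members differed between D2 and B6 in edgeR, 5 higher (background 5.23%) and 2 lower (background 8.75%) in D2. This was 16.3% of the members, against 14.0% of all genes tested. The D2 Ctrl libraries lay entirely above B6 Ctrl for 8 members and below for 4, where the shares over all genes were 13.9% and 17.8%. Without B6 Ctrl 1 the number called was 3. Averaged over treatments, 8 members were called, 6 higher (background 8.64%) and 2 lower (background 12.7%) in D2, which was 18.6% against 21.3% of all genes. All 6 D2 libraries lay above all 6 B6 libraries for 4 members (background 5.63%) and below for 2 (background 8.73%). Per the study's methods, D2 reads were aligned to the D2 genome and B6 reads to the B6 genome, so that a difference in how well each reference fits its reads cannot be told apart from a strain difference in mRNA. Comparisons within a strain are not touched by this.

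The largest strain differences were in Col19a1 and Col6a6. Col19a1, a FACIT collagen made by interneurons (chr1:24261890-24587472), had 201, 175 and 357 normalized counts in the B6 Ctrl mice, 241, 166 and 75.0 in the B6 KD mice, 1218, 1513 and 730.0 in the D2 Ctrl mice, and 606, 779.9 and 1183 in the D2 KD mice. Every D2 library lay above every B6 library, and the log2 fold change averaged over treatments was 2.32 ± 0.32 (edgeR adjusted p = 0.000238). Col6a6, a chain of type VI collagen (chr9:105687809-105828160), had 14.8, 47.1 and 25.3 in the B6 Ctrl mice, 19.5, 43.2 and 12.6 in the B6 KD mice, 179, 158 and 79.9 in the D2 Ctrl mice, and 115, 103 and 222 in the D2 KD mice. Its 6 D2 libraries were also above all B6 libraries (2.42 ± 0.39, edgeR adjusted p = 0.000809). The neighboring gene Col6a5 (chr9:105856078-105960643) had 47.6, 46.0 and 60.2 in the B6 Ctrl mice, 68.7, 83.8 and 62.4 in the B6 KD mice, 161, 158 and 99.8 in the D2 Ctrl mice, and 206, 107 and 202 in the D2 KD mice (1.34 ± 0.20, edgeR adjusted p = 0.000443). The third gene of this cluster, Col6a4, went the other way without passing the threshold, with 27.3 to 50.5 in the 6 D2 libraries and 6.90 to 253 in the 6 B6 libraries (-1.52 ± 0.58, edgeR adjusted p = 0.0928). The leading type VI gene, Col6a1, had 2269, 2226 and 1689 normalized counts in the B6 Ctrl mice, 1818, 2311 and 2165 in the B6 KD mice, 1022, 1401 and 3795 in the D2 Ctrl mice, and 2681, 2053 and 1542 in the D2 KD mice. Its strains overlapped, and its averaged log2 fold change was 0.00 ± 0.29 (edgeR adjusted p = 0.995).

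Among the fibrillar genes, Col11a1 (chr3:114030540-114220718), with the B6 values above, had 2442, 2258 and 762 normalized counts in the D2 Ctrl mice and 2419, 2269 and 2114 in the D2 KD mice. In Ctrl the strains did not overlap, and the log2 fold change was 1.64 ± 0.39 (edgeR adjusted p = 0.0145). Over all libraries B6 KD 1, with 1921, lay above D2 Ctrl 3, and the averaged value was 1.21 ± 0.27 (edgeR adjusted p = 0.00703). Col5a2 (chr1:45374321-45503282) had 808, 836 and 975 in the D2 Ctrl mice and 1281, 1407 and 827 in the D2 KD mice, and its difference was 0.91 ± 0.22 in Ctrl (edgeR adjusted p = 0.0171) and 0.70 ± 0.15 averaged (edgeR adjusted p = 0.00664). Col11a2 (chr17:34039437-34066685) had 2016, 1472 and 2593 in the D2 Ctrl mice and 1686, 1551 and 1584 in the D2 KD mice, all above the B6 libraries, and was called only averaged over treatments (0.56 ± 0.12, edgeR adjusted p = 0.00515).

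Fewer genes were lower in D2. Col26a1 (chr5:136741759-136883209), which encodes a small secreted collagen, had 131, 151 and 89.8 normalized counts in the B6 Ctrl mice, 134, 103 and 113 in the B6 KD mice, 61.1, 49.7 and 53.3 in the D2 Ctrl mice, and 82.2, 59.2 and 64.1 in the D2 KD mice. Every D2 library lay below every B6 library, and the averaged log2 fold change was -0.99 ± 0.16 (edgeR adjusted p = 0.00081). Col2a1, the fibrillar collagen of cartilage (chr15:97975602-98004695), had 80.4, 95.4 and 87.2 in the B6 Ctrl mice, 107, 72.0 and 92.1 in the B6 KD mice, 65.8, 20.6 and 37.7 in the D2 Ctrl mice, and 59.0, 68.7 and 49.7 in the D2 KD mice. It did not overlap between strains either and was called averaged over treatments (-0.84 ± 0.24, edgeR adjusted p = 0.0258), although 6 of the 12 fits without 1 library lost that call (adjusted p up to 0.0652). Col5a1 (chr2:27886425-28039514) was called only in Ctrl mice, with 1023, 1368 and 1083 in B6 and 753, 901 and 652 in D2 (-0.59 ± 0.17, edgeR adjusted p = 0.0391). Col5a1 and Col5a2 encode chains that assemble into type V collagen, and in Ctrl mice they were called in opposite directions between the strains.

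**Figure D4:**
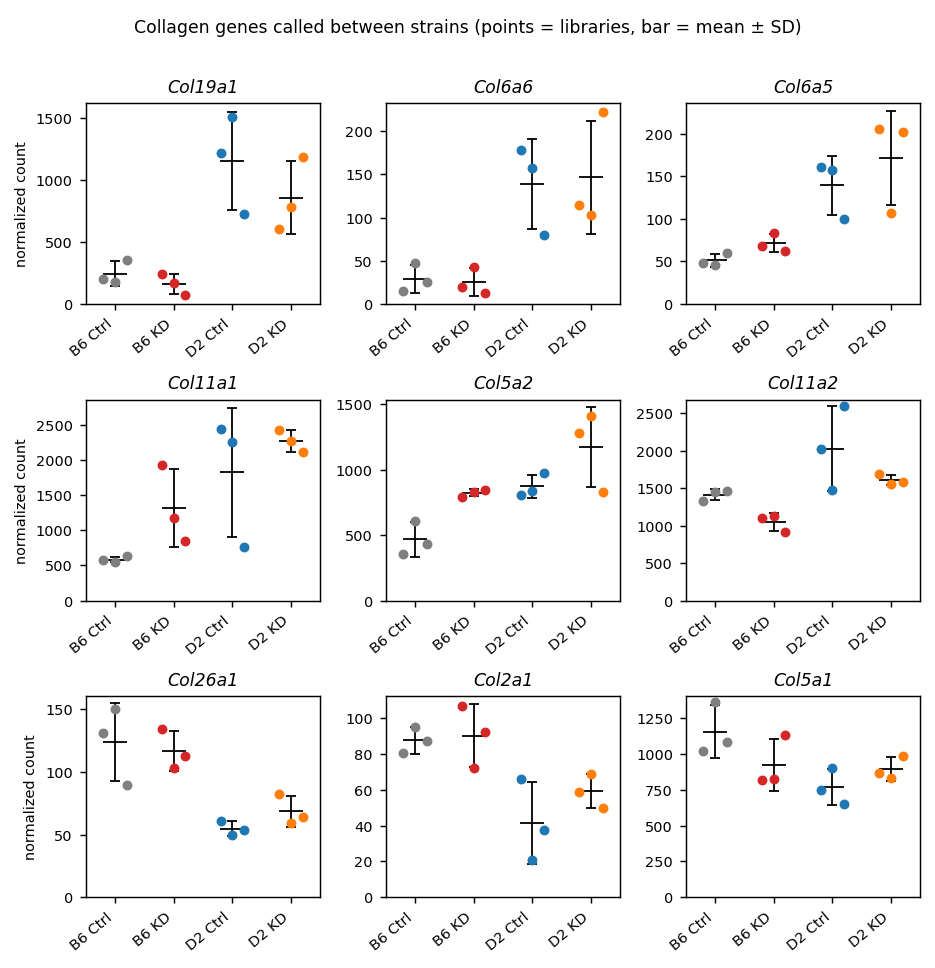
Normalized counts of the 9 collagen genes called between strains in Ctrl mice or averaged over treatments, 1 panel per gene with a linear axis from 0. Points are libraries, horizontal bars are group means and error bars are SD (n = 3). The 6 D2 points lie above the 6 B6 points for Col19a1, Col6a6, Col6a5 and Col11a2 and below them for Col26a1 and Col2a1.

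Of the 9 genes called between strains, Col19a1, Col6a5 and Col26a1 kept both of their calls in all 12 fits that left out 1 library, with adjusted p of at most 0.0326. Col11a1, Col6a6 and Col5a2 kept the averaged call in all 12 but lost the call in Ctrl in 4, 3 and 3 of them. Col11a1 lost it without B6 Ctrl 1, B6 Ctrl 2, D2 Ctrl 1 or D2 Ctrl 2, Col6a6 without B6 Ctrl 1, B6 Ctrl 3 or D2 Ctrl 1, and Col5a2 without B6 Ctrl 1, B6 Ctrl 3 or D2 Ctrl 3, with adjusted p of at most 0.0725. Col2a1 lost its averaged call without B6 Ctrl 2, B6 Ctrl 3, B6 KD 1, D2 Ctrl 3, D2 KD 1 or the library labelled D2 KD 3. Col5a1 lost its call in 7 fits, those without B6 Ctrl 1, B6 Ctrl 2, B6 Ctrl 3, D2 Ctrl 1, D2 Ctrl 3, D2 KD 1 or D2 KD 2, with an adjusted p of at most 0.14. With the choroid plexus score as a covariate, Col19a1, Col6a5, Col6a6, Col11a1 and Col5a2 stayed higher and Col26a1 and Col5a1 stayed lower in D2 Ctrl.

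Several collagen genes were split between libraries in the same way as the choroid plexus markers. In 5 members, Col8a1, Col8a2, Col9a3, Col4a3 and Col4a4, the 7 libraries with high choroid plexus markers all lay above the other 5, and in no member did they all lie below. This was 11.6% of the members, where it held for 2.05% of all genes, and the reverse held for 0.0253%. These values are a description over libraries that were sorted by markers and not by design, and the genes are named after their values were seen. Col8a2 and Col8a1 encode the chains of type VIII collagen, a short-chain collagen of endothelium and other linings. Col8a2 had 70.5, 659.8 and 121 normalized counts in the B6 Ctrl mice, 89.9, 927 and 1126 in the B6 KD mice, 167, 954 and 1207 in the D2 Ctrl mice, and 1425, 93.1 and 1229.8 in the D2 KD mice. It thus lay at 70.5 to 167 in the 5 libraries and at 659.8 to 1425 in the 7, and Col8a1 had 46.2 to 119 and 613 to 1171. Col9a3, a FACIT chain, had 310.0, 1578 and 352 in the B6 Ctrl mice, 609, 2409.7 and 2961 in the B6 KD mice, 546, 1833 and 2794 in the D2 Ctrl mice, and 2376, 578 and 2186 in the D2 KD mice, which was 310.0 to 609 against 1578 to 2961. Col4a3 and Col4a4, the type IV chains of kidney, lung and other specialized basement membranes, had 18.9 to 86.5 and 102 to 271, and 9.02 to 57.6 and 95.4 to 228. Within the type IV class, Col4a1 and Col4a2 did not follow this split: Col4a1 had 2432 to 4703 in the 5 libraries and 2825 to 5656 in the 7.

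**Figure D5:**
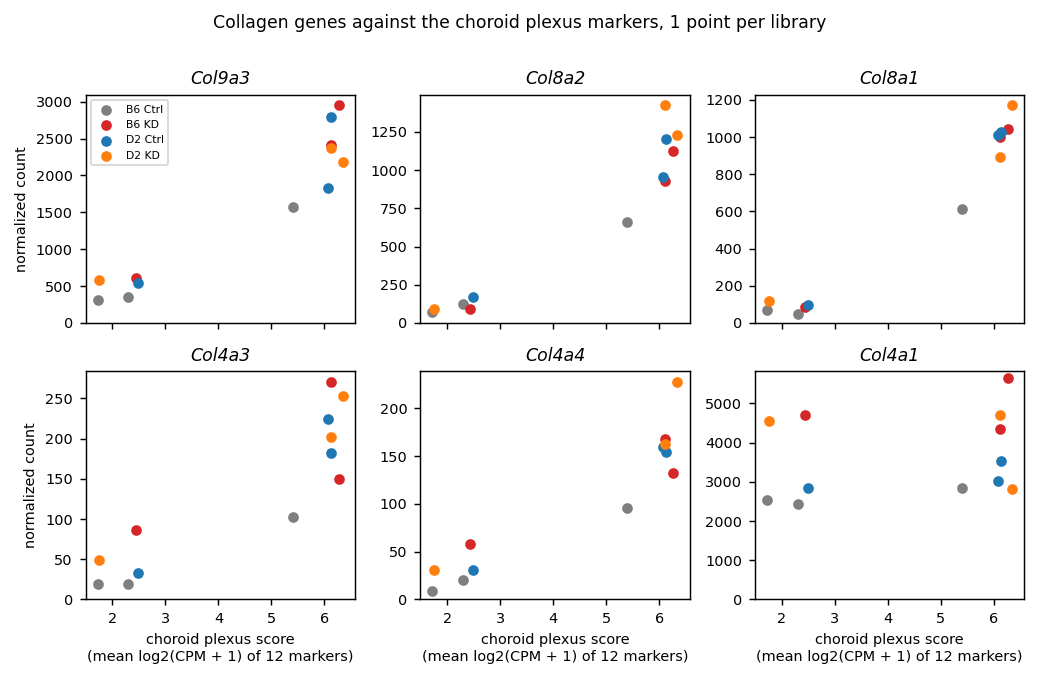
Normalized counts of Col9a3, Col8a2, Col8a1, Col4a3, Col4a4 and Col4a1 (vertical axes, linear from 0) against the choroid plexus score of each library, the mean of log2(CPM + 1) over 12 marker genes. Each point is a library colored by group. In the first 5 panels the 7 libraries with scores of 5.40 to 6.35 lie above the 5 with scores of 1.72 to 2.49, and in the panel of Col4a1 they do not.

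None of these 5 genes was called in any comparison. In B6 the log2 fold change of Col8a2 was 1.37 ± 1.17 (edgeR adjusted p = 0.548), and Col9a3 had 1.45 ± 0.84 (edgeR adjusted p = 0.359). With the choroid plexus score as a covariate these values were -0.13 for Col8a2 and 0.58 for Col9a3. Col18a1, the multiplexin whose fragment is endostatin, had 162, 612 and 159 normalized counts in the B6 Ctrl mice, 451, 730.4 and 1364 in the B6 KD mice, 237, 489.9 and 835 in the D2 Ctrl mice, and 929.9, 560.5 and 615 in the D2 KD mice. B6 Ctrl and B6 KD overlapped, and its log2 fold change in B6 was 1.49 ± 0.62 (edgeR adjusted p = 0.207).

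Chains that assemble with each other were compared by the ratio of their levels per kilobase within a library. Col4a1 relative to Col4a2 was the steadiest pair, at 0.598 to 0.807 over the 12 libraries, with 0.598 to 0.691 in the B6 Ctrl mice and 0.685 to 0.807 in the B6 KD mice. Col1a1 relative to Col1a2 ranged from 1.14 to 1.85, while their levels ranged over 8.60 and 7.33 times. The size of this ratio depends on the exon lengths used, 6.56 kilobases for Col1a1 and 12.4 for Col1a2. Without the lengths Col1a2 had the higher mean, 1120 against 846 normalized counts. Col4a6 relative to Col4a5 ranged from 0.282 to 0.56, and Col4a3 relative to Col4a4 from 1.02 to 2.23. Other pairs were looser. Col11a1 relative to Col11a2 was 0.205 to 0.232 in the B6 Ctrl mice, 0.496 to 0.944 in the B6 KD mice, 0.159 to 0.828 in the D2 Ctrl mice and 0.72 to 0.789 in the D2 KD mice. The B6 ranges could not overlap, since Col11a1 lay entirely higher and Col11a2 entirely lower in B6 KD, as given above. Col5a1 relative to Col5a2 was 2.53 to 3.25 in the B6 Ctrl mice and between 0.671 and 1.52 in the other 9 libraries. Because Col4a1 and Col4a2 overlap at their starts and the strandedness of the libraries was not stated, reads from the shared bases cannot be assigned to either gene with certainty.

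The genes that process and anchor collagen were read next, from 7 lists by role. In B6, edgeR called 5 of the 86 tested genes on these lists, or 5.81%, beside 2.64% of all genes, and 4 of them were higher in KD, beside 1.76% of all genes. The lists were chosen with earlier results known. Among enzymes and chaperones that hydroxylate and fold collagen chains, 15 of 23 listed genes were tested, and in B6 edgeR called 1 higher and 1 lower in KD. Plod2, a lysyl hydroxylase, had 237, 319.6 and 298 normalized counts in the B6 Ctrl mice and 505, 449 and 521 in the B6 KD mice, with no overlap, and was higher by 0.81 ± 0.14 on the log2 scale (edgeR adjusted p = 0.0344). Leprel2, a prolyl 3-hydroxylase, had 1105, 930.0 and 879.7 in Ctrl and 744, 719.9 and 687 in KD, and its value was -0.41 ± 0.09 (edgeR adjusted p = 0.0467). Among 9 tested collagen receptors, edgeR called 2, both higher in B6 KD. Itgb1, the beta chain shared by collagen-binding integrins, had 1989.6, 2591 and 2106 in Ctrl and 3600.0, 4305 and 3636 in KD (0.81 ± 0.18, edgeR adjusted p = 0.0462). Itga2, the alpha chain of a collagen-binding integrin, had 1.64, 2.30 and 1.74 in Ctrl and 17.8, 23.6 and 34.2 in KD (3.70 ± 0.60, edgeR adjusted p = 0.0326), all of them few counts. Leaving out B6 Ctrl 1, B6 Ctrl 3, B6 KD 1, B6 KD 2 or D2 Ctrl 1 ended the calls of Plod2, Leprel2, Itga2 and Itgb1 alike. Further calls were lost for Plod2 without D2 Ctrl 2, for Itgb1 without B6 Ctrl 2, D2 Ctrl 2 or D2 KD 1, and for Leprel2 without B6 Ctrl 2, B6 KD 3, D2 Ctrl 2, D2 KD 1 or D2 KD 2, and the highest adjusted p over the 12 fits was 0.178 for Plod2 and Itga2, 0.189 for Leprel2 and 0.196 for Itgb1.

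Among 12 growth factor and Smad genes, edgeR called 1 in B6, or 8.33%, beside 2.64% of all genes. Tgfbr2, a receptor for transforming growth factor beta, had 745, 1159 and 689 normalized counts in the B6 Ctrl mice and 1726, 1852 and 1470.0 in the B6 KD mice, with no overlap (log2 fold change 0.98 ± 0.22, edgeR adjusted p = 0.0453). The call of Tgfbr2 was lost without B6 Ctrl 1, B6 Ctrl 3, B6 KD 1, B6 KD 2, D2 Ctrl 1, D2 Ctrl 2 or D2 KD 1, with an adjusted p of at most 0.194. None of the 5 crosslinking enzymes of the lysyl oxidase family, the 10 tested genes of degradation, the 24 noncollagenous matrix partners such as laminins and nidogens, or the 11 genes of secretion and propeptide cleavage was called in B6. The matrix partners had positive values in 23 of 24 genes, or 95.8%, beside 50.4% of all genes, with a median of 0.69, beside the 0.00 of all genes. The crosslinking enzymes had a median of 1.34, with 5 of 5 positive. The choroid plexus markers were positive in 12 of 12 genes in B6 as well, with a median of 1.72 and 0 called. Their part in the values of these lists was not tested. In D2, averaged over strains and for the interaction, no gene of any of these 7 lists was called.

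Between strains in Ctrl, 9 of the 86 genes were called, or 10.5%, beside 14.0% of all genes, and averaged over treatments 9, beside 21.3%. P4ha3, a prolyl 4-hydroxylase subunit, had 82.8, 110.4 and 76.7 normalized counts in the B6 Ctrl mice and 513, 313 and 1153 in the D2 Ctrl mice (log2 fold change 2.89 ± 0.57, edgeR adjusted p = 0.00508). P4ha2, a further subunit, went the other way, with 621, 585 and 649 in the B6 Ctrl mice and 368, 444 and 367 in the D2 Ctrl mice (-0.66 ± 0.13, edgeR adjusted p = 0.00502). Leprel2 was also lower in D2 Ctrl, with 734, 762 and 741 (-0.38 ± 0.09, edgeR adjusted p = 0.018), but not without B6 Ctrl 1 or D2 Ctrl 1 (adjusted p at most 0.0976). Loxl2, a lysyl oxidase that crosslinks type IV collagen, had 18.0, 98.9 and 22.7 in the B6 Ctrl mice and 257, 307 and 346 in the D2 Ctrl mice (2.73 ± 0.55, edgeR adjusted p = 0.00564). Adamts2, which cleaves the amino-terminal propeptide of fibrillar collagens, had 634, 594 and 506 in the B6 Ctrl mice and 239, 267 and 182 in the D2 Ctrl mice (-1.34 ± 0.27, edgeR adjusted p = 0.0056). Mia2, listed for secretion, was listed at 0 in all 6 B6 libraries and at 8.61 to 26.8 in the 6 D2 libraries. For this pattern the separate reference genomes cannot be told apart from expression. Mia2 could pass the filter on low counts only through the D2 libraries. Its edgeR call is therefore counted among the 9 but is not read as a result.

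The remaining calls between strains in Ctrl mice were among the growth factor genes. Pdgfa, a platelet-derived growth factor chain, had 1108, 1054 and 970.3 normalized counts in B6 and 573, 567 and 617 in D2 (log2 fold change -0.83 ± 0.13, edgeR adjusted p = 0.00101). Smad2, a transducer of transforming growth factor beta signals, had 769, 728 and 764 against 1269.6, 1394 and 1052 (0.72 ± 0.10, edgeR adjusted p = 0.000321). Tgfb2, a transforming growth factor beta ligand, had 1348, 1763 and 1794 against 2520.3, 2638 and 2169 (0.58 ± 0.17, edgeR adjusted p = 0.0453), a call that 8 of the 12 fits without 1 library lost, those without any 1 of the B6 Ctrl or D2 Ctrl libraries, B6 KD 2 or the library labelled D2 KD 3 (adjusted p at most 0.178). None of the 24 matrix partners and none of the 9 receptors was called between strains, in Ctrl or averaged. Averaged over treatments, Mmp2, which encodes a gelatinase, was called as well, with 83.7 to 267 in the 6 B6 libraries and 184 to 365 in the 6 D2 libraries (0.80 ± 0.24, edgeR adjusted p = 0.0373), and this call stayed in 4 of the 12 fits, those without B6 Ctrl 2, B6 KD 2, D2 Ctrl 1 or D2 Ctrl 2 (adjusted p at most 0.0846).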

How the data were processed

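Hippocampal mRNA of 12 male mice was sequenced from libraries made with the KAPA mRNA Hyper Prep kit, 1 library per mouse as labelled, in 4 groups of 3. The authors deposited expected counts per gene, estimated with RSEM 1.2.12 over Bowtie2 2.2.0 per the submitters' processing notes (GRCm38/mm10), after aligning B6 reads to the B6 genome and D2 reads to the D2 genome. They also deposited normalized counts, a signal scaled by DESeq2 size factors, which gave whole reads for 100% of 266784 values (tolerance 0.01). Per the labels, sequencing was repeated, and most but not all libraries hold reads from both runs, without a statement of which. Whether reads were counted by strand is not given in the sources used here. Replicate numbers follow the order of deposit, and p-values measure the spread between these libraries.

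Expected counts were rounded to whole numbers, and 27 gene symbols that had turned into dates were restored. After filterByExpr, 15853 genes were fitted with TMM factors and the quasi-likelihood test of edgeR 4.0.16 (R 4.3.3), with 1 mean per group and Benjamini-Hochberg adjustment over all genes at a threshold of 0.05. DESeq2 1.42.0 and limma-voom 3.58.1 (voom and empirical Bayes moderation, without library weights) were alternatives, as were covariates, filters and the omission of each library. An exact permutation test of the totals of KD against Ctrl libraries within strains gave a two-sided p of 0.525 over 400 assignments. Replicates differed by more than sampling noise (chi-square per degree of freedom 22.4 to 106). The median total was 32380300 expected counts, and the number of libraries limits the precision more than their depth.

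Members and gene lists were chosen with earlier results of these data known. Genes with values per library were those called in any comparison, the leading gene per kilobase of each class, Col1a1, Col1a2, Col3a1, Col4a1, Col4a2 and Col6a1, the genes around the count threshold and up to 3 called genes per pathway list. Others are named after their values were seen. All 43 members matched the GENCODE annotation.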

Additional observations from a re-analysis of the deposited data

How the results depend on the processing

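No paired analysis was possible because the labels carry no replicate numbers. For KD against Ctrl in B6, edgeR called 1 collagen gene, DESeq2 9 and limma-voom 2, among 418, 1668 and 368 genes called in all. In variants of edgeR, RLE size factors gave 2, the newer quasi-likelihood method 3, no robust estimation 2 and the recovered whole reads 2. Over all genes these variants called 471, 612, 481 and 425 in that order. The library total or the choroid plexus score as a covariate left 0 members, and no gene at all was called in either fit. The fibroblast score left 1, Col4a5 in place of Col4a1, among 50 genes called. Leaving out each library gave 0 to 6 members, where 0 to 790 genes were called in all. Averaged over strains, where edgeR called 0, DESeq2 called 6 and leaving out each library gave 0 to 4. Over all genes these counts were 0, 1217 and 0 to 799. Between strains in Ctrl, where 7 were called, leaving out each library gave 3 to 10. Over all genes these counts were 2216 and 1660 to 2446. Between strains averaged over treatments, where 8 were called, 5 remained among members with a mean expected count of at least 100, which holds fewer genes by construction. The cause of the other changes was not tested. The log2 fold change of Col1a1 between strains in Ctrl was the 1 value called with the opposite sign in an alternative. It was -0.01 with all libraries, 1.39 without B6 Ctrl replicate 2 and -0.41 as the lowest value without 1 library. Of the 203 log2 fold changes of named genes, 53 had the opposite sign in at least 1 alternative, none of them called with all libraries. Among them, Col8a2 in B6 went from 1.37 to -0.13 with the choroid plexus score, Col1a2 between strains in Ctrl from -0.22 to as much as 1.15 without 1 library, averaged Col3a1 between strains from -0.11 to 0.83, and Col6a1 between strains in Ctrl from 0.02 to -0.77. The other counts, 126 in all, stayed within 1.5 times the reported count or kept the direction of the reported difference in totals.

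Members with a mean under 100 expected counts, such as Col9a1 and Col28a1, rest on few reads. Among them are Col6a6 (82.2), Col26a1 (95.7) and Col2a1 (74.8), which were called between strains. With 3 libraries per group, a result that misses the threshold does not show equal levels. The library labelled D2 KD 3 did not show the fall of Hp1bp3, and the choroid plexus markers differ between libraries within each group.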
